A study of Mus musculus with 6 samples.

Results

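Lgr5, Cyp2c29 and Car3 are genes of pericentral hepatocytes, the liver cells that border the central vein. The question was how their messenger RNA in bulk mouse liver differed between livers that overexpressed Ly6d and controls. These 3 genes were selected by name from the 1834 genes of the deposited expression table, with earlier results of that table known. They were thus chosen on the comparison described here, and their differences are given as a description, with no test. All 3 were in the table and all 3 passed the filter on low values (at least 1 in 3 or more libraries), which 1780 of the 1834 genes passed.

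The series holds 6 liver libraries from Mus musculus. In 3 of them the animals, labelled WT, had received an adeno-associated virus (AAV) with green fluorescent protein (AAV-GFP). The other 3, labelled Ly6d overexpression, had received an AAV with Ly6d, which encodes a cell-surface protein held in the membrane by a lipid anchor. All mice were kept on 1 diet, and the title of the series places the work in metabolic dysfunction-associated steatotic liver disease (MASLD). The sources used here do not give strain, sex, age, the diet, the vector's promoter and dose, or the time after injection. They also do not say whether each library was made from its own animal. P-values therefore set the group difference only against the spread among these samples, and that spread may be technical. Values below are normalised read counts as deposited, that is, reads divided by a factor for each library.

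Hepatocytes do different work along the path of the blood from the portal vein to the central vein. Those near the portal vein make glucose and urea, and those near the central vein detoxify drugs and take up ammonia into glutamine. Endothelial cells of the central vein and sinusoid secrete the Wnt ligands Wnt2 and Wnt9b and the R-spondin Rspo3, which maintain beta-catenin signalling in the neighbouring hepatocytes. Lgr5 is a receptor for R-spondins and itself a target of that signal. Cyp2c29 is a cytochrome P450 that oxidises drugs and fatty acids, and its transcription also responds to the drug-sensing nuclear receptor CAR. Car3 encodes carbonic anhydrase III, an abundant cytosolic enzyme of hepatocytes, skeletal muscle and fat.

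The genes lie on 3 chromosomes of GRCm38, the mm10 assembly. Lgr5 (ENSMUSG00000020140) spans 115450311 to 115587780 on the minus strand of chromosome 10, and its longest coding transcript has 18 exons and 4714 bases. Cyp2c29 (ENSMUSG00000003053) spans 39269405 to 39330713 on the plus strand of chromosome 19, with 9 exons and 1783 bases. Car3 (ENSMUSG00000027559) spans 14863512 to 14872523 on the plus strand of chromosome 3, with 7 exons and 1679 bases.

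Of the 3 genes, RefSeq promoters (GRCm38.p6) were matched for Cyp2c29. The 250 bases before its RefSeq start are printed with those of Cyp2c38, a neighbouring gene of the same family that is also pericentral and also in the table. Capitals mark a match to CTTTGAT, the letters bound by the TCF/LEF factors of Wnt signalling, searched on both strands (the reverse strand reads ATCAAAG). The Cyp2c29 window is chr19:39286835-39287084 on the plus strand, and the Cyp2c38 window is chr19:39463076-39463325 on the minus strand.
Cyp2c29: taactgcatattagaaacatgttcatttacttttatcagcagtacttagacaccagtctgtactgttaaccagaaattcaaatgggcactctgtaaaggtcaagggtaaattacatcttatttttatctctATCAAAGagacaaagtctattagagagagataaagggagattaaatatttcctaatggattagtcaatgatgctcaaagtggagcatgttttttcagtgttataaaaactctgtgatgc
Cyp2c38: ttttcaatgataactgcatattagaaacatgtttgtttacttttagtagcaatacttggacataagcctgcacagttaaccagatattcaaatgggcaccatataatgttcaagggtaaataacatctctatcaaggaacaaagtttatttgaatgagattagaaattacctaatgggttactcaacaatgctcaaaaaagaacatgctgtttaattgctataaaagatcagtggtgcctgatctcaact
RefSeq starts Cyp2c29 at 39287085, which is 11 bases after the start of its longest coding transcript in GENCODE and 17680 bases inside the gene span given above, whose first base belongs to another transcript. The match begins 119 bases before this RefSeq start, on the reverse strand, and Cyp2c38 has no match in this window. The 2 windows were identical at 187 of 228 aligned bases (82%). Of 32851 RefSeq promoter windows of this length, 1053 (3.21%) hold CTTTGAT on either strand. A match of letters describes the sequence and is not evidence of binding.

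Ly6d itself was read in every library first, as a check of the labels. Its normalised read count was 56.1, 9.68 and 182 in AAV-GFP and 3181, 1799 and 3275 in AAV-Ly6d. The table held 3248078 to 4359932 reads per library, which is part of each library. On the first principal component of the tested genes, which held 73.9% of the variance, AAV-GFP replicate 2 stood at -49.9, apart from -15.4 and -18.1 for the other AAV-GFP libraries, while the AAV-Ly6d libraries lay between 25.1 and 29.6. Hepatocyte genes dominated the table, and Apoa1, an apolipoprotein of hepatocytes, ranged from 31908 to 130777. The table holds 0 of 16 listed skeletal muscle genes, and the 1 listed adipocyte gene in it, Retn, had 1 read in AAV-GFP replicate 1, 28 reads in AAV-GFP replicate 3 and 0 in the other 4 libraries.

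The R-spondin receptor gene Lgr5 was the scarcest of the 3 and was lower in every AAV-Ly6d library. Its normalised read count was 118, 286 and 210 in AAV-GFP and 87.5, 69.8 and 92.5 in AAV-Ly6d, from 122, 266 and 249 reads and 90, 70 and 85 reads. AAV-GFP replicate 2 was highest and AAV-Ly6d replicate 2 lowest, and the groups did not overlap, with the highest AAV-Ly6d library at 0.783 of the lowest AAV-GFP library. AAV-GFP averaged 205 ± 84.2 and AAV-Ly6d 83.2 ± 11.9 (SD, n = 3 each), and the ratio of the first to the second was 2.46. On the log2(value + 1) scale the difference was -1.21 (SE 0.36). Most of the spread lay among the controls, whose highest library held 2.42 times the lowest, against 1.33 times in AAV-Ly6d.

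Cyp2c29 was an abundant transcript, 57th of the 1780 tested genes by mean value, and showed the smallest difference of the 3. It stood at 12925, 19061 and 11102 in AAV-GFP and at 8976, 4572 and 10040 in AAV-Ly6d. The groups did not overlap on the deposited scale, but AAV-Ly6d replicate 3 reached 0.904 of AAV-GFP replicate 3, the lowest control. The group means of 14363 ± 4170 and 7863 ± 2899 (SD, n = 3 each) had a ratio of 1.83, and the log2(value + 1) difference was -0.91 (SE 0.34). As in Lgr5, AAV-GFP replicate 2 was highest and AAV-Ly6d replicate 2 lowest. Few exact stretches of 50 bases are shared with its relatives, a count that does not cover reads aligned with mismatches. Of 1734 words of 50 bases in the longest coding transcript of Cyp2c29, 9 (0.519%) also occur in transcripts of other Cyp2c genes, all 9 in Cyp2c39 and 2 of them also in Cyp2c38.

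Car3 was the most abundant of the 3, 17th of the tested genes, and the only one whose groups overlapped on the deposited scale. Its values were 36182, 87694 and 47734 in AAV-GFP and 21973, 10514 and 42131 in AAV-Ly6d. AAV-Ly6d replicate 3 lay above AAV-GFP replicate 1, at 1.16 times its value, and the other AAV-Ly6d libraries lay below all controls. AAV-GFP averaged 57203 ± 27030 and AAV-Ly6d 24873 ± 16007 (SD, n = 3 each), with a ratio of 2.30 and a log2(value + 1) difference of -1.32 (SE 0.52), the largest difference and the largest error of the 3. In AAV-Ly6d the highest library held 4.01 times the lowest. No word of 50 bases of its longest coding transcript occurs in a transcript of the other listed carbonic anhydrases.

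**Figure D1:**
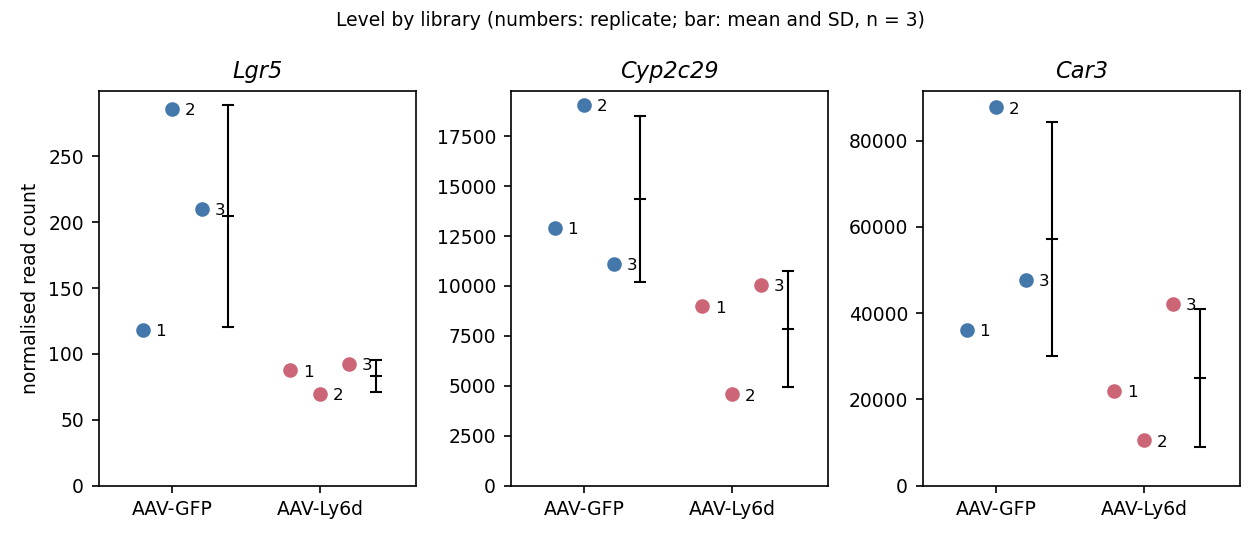
Normalised read counts (linear axis from 0) of Lgr5, Cyp2c29 and Car3 in the 3 AAV-GFP libraries (blue) and the 3 AAV-Ly6d libraries (red), numbered by replicate, with the mean and SD of each group beside the points. In each panel AAV-GFP replicate 2 is highest and AAV-Ly6d replicate 2 lowest, and only for Car3 does an AAV-Ly6d library (42131) pass an AAV-GFP library (36182).

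The counts of groups that did not overlap were thus 2 of 3, where 49.3% of all tested genes were lower in AAV-Ly6d without overlap. Since the genes were chosen on this contrast and the table itself holds genes that differ between these libraries, nothing is read from that count. The median log2(value + 1) difference over all tested genes was -0.67, with quartiles of -1.21 and 0.64. A more negative difference was seen in 24.9% of tested genes for Lgr5, in 37.98% for Cyp2c29 and in 21.6% for Car3. Direction varied with level in the table. Of the 100 tested genes nearest to Lgr5 in mean value, 69 were lower in AAV-Ly6d. Of the 100 nearest to Cyp2c29 11 were lower, and of the 100 nearest to Car3 10 were lower, with a median difference of 0.62 around either gene. These counts describe the table, and with the 3 genes chosen on the same contrast they are no evidence that the 3 stand apart.

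**Figure D2:**
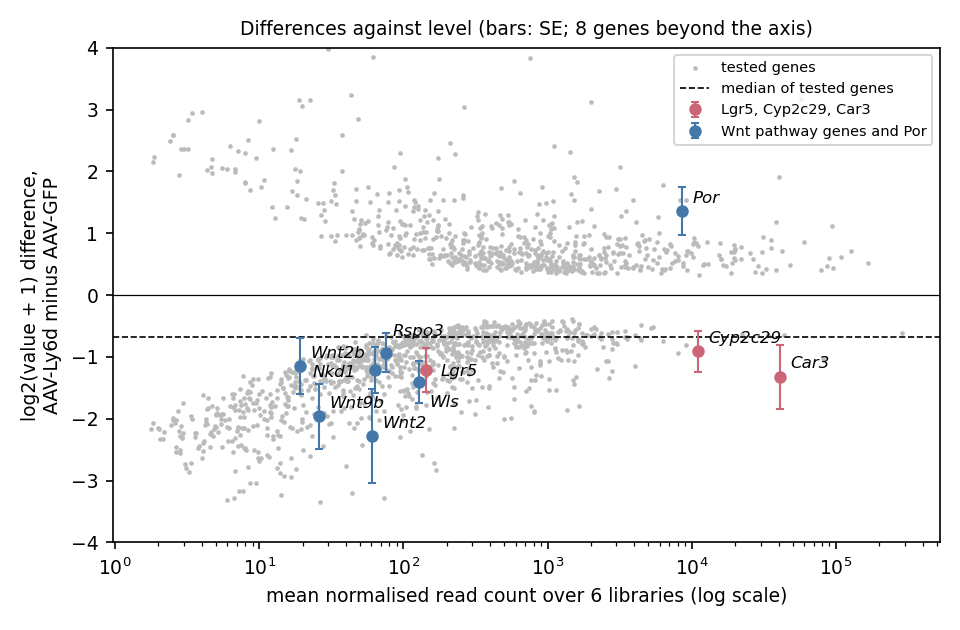
The log2(value + 1) difference between AAV-Ly6d and AAV-GFP (vertical axis, bars are SE) against the mean normalised read count over 6 libraries (log axis) for the tested genes (grey, 8 beyond the axis). Lgr5, Cyp2c29 and Car3 (red; blue marks Wnt pathway genes and Por) lie below the dashed median of -0.67, Cyp2c29 and Car3 in a range of level where most genes lie above 0, and the gap around 0 shows that the table holds no gene with a small difference.

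Levels of the 3 genes were compared with each other per length, as normalised read count per kilobase of the longest coding transcript. In AAV-GFP this level was 43.4 ± 17.9 for Lgr5, 8055 ± 2339 for Cyp2c29 and 34070 ± 16099 for Car3 (SD, n = 3 each). In AAV-Ly6d it was 17.7 ± 2.53, 4410 ± 1626 and 14814 ± 9534 in the same order (SD, n = 3 each). The order Car3, Cyp2c29, Lgr5 held in each of the 6 libraries. Car3 stood at 2.44 to 4.89 times Cyp2c29 per length in the same library, and Cyp2c29 at 140 to 289 times Lgr5. These ratios overlapped between the groups. Car3 over Cyp2c29 was 4.14 ± 1.02 in AAV-GFP and 3.17 ± 1.12 in AAV-Ly6d, and Cyp2c29 over Lgr5 was 202 ± 78.1 and 244 ± 61.6 (SD, n = 3 each).

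All 3 differences stayed below 0 in each setting tried. Without AAV-GFP replicate 2 the log2 differences were -0.92 for Lgr5, -0.69 for Cyp2c29 and -0.96 for Car3. Without AAV-Ly6d replicate 2 they were -1.09, -0.56 and -0.81 in the same order, so that Cyp2c29 and Car3 moved by more than 1.5 times. Lgr5 moved most without AAV-GFP replicate 1, its lowest control, to -1.56. Car3 reached -1.81 without AAV-Ly6d replicate 3, the library that overlapped the controls. Rescaling each library by its median ratio over the table moved the median of all tested genes by 0.34, from -0.67 to -0.33, and Lgr5, Cyp2c29 and Car3 to -0.87, -0.57 and -0.98. The values were divided by 0.896 in AAV-Ly6d replicate 3 and by 1.03 in AAV-GFP replicate 3, so the groups then overlapped for Cyp2c29 as well. In edgeR with TMM factors, another scaling, Lgr5, Cyp2c29 and Car3 stood at -0.99, -0.55 and -0.87.

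**Figure D3:**
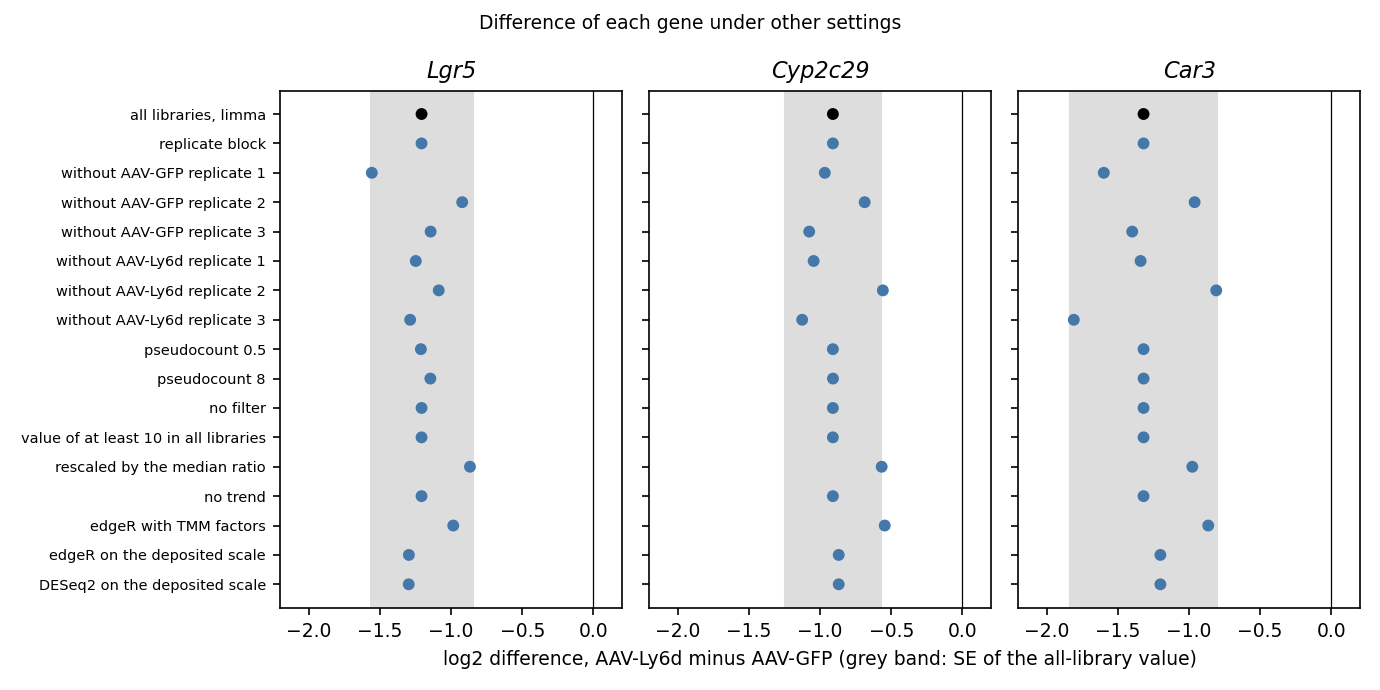
The log2 difference between AAV-Ly6d and AAV-GFP (horizontal axis) of Lgr5, Cyp2c29 and Car3 with all libraries (black) and under each other setting (blue); the grey band is the SE around the all-library value. Every point lies below 0, and the range is widest for Car3, from -1.81 without AAV-Ly6d replicate 3 to -0.81 without AAV-Ly6d replicate 2.

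The other pericentral genes of the table did not share 1 direction. Of 49 listed pericentral genes 7 were in the table, the 3 described above and 4 others, while the remaining 42, among them Glul, Axin2 and Cyp2e1, are not analysed here. Over all tested genes limma called 43.9% at an adjusted p under 0.05, 28% lower and 15.9% higher, and "fell" and "rose" below refer to these calls. The genes of the table were handled as selected for differing between these groups, so these adjusted p-values are too small. With adjustment over all annotated genes limma called 0 of the listed genes. Of the 4 others 1 fell, 1 rose and 2 did not pass, and their median was -0.76 beside -0.67 over all tested genes. A bulk library cannot tell fewer cells of a kind from less RNA per cell.

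Nkd1, a feedback inhibitor and target of Wnt signalling, fell. Its normalised read count was 103, 61.3 and 105 in AAV-GFP and 27.2, 35.9 and 51.1 in AAV-Ly6d, with no overlap between the groups. The log2 difference was -1.22 (SE 0.37, limma adjusted p = 0.0418). Unlike Lgr5, it was lowest among the controls in AAV-GFP replicate 2. The call held without that library and was lost without any other single library, with adjusted p between 0.0711 and 0.109 in limma, and also with libraries rescaled by their median ratios (-0.88, adjusted p = 0.0958).

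Por, the reductase that passes electrons to microsomal cytochromes P450 such as Cyp2c29, rose. It held 7501, 2462 and 5328 in AAV-GFP and 14313, 9849 and 11821 in AAV-Ly6d, again with no overlap, and its log2 difference was 1.36 (SE 0.38, limma adjusted p = 0.0405). In every AAV-Ly6d library Por was thus above the controls while Cyp2c29 was below them. The call was lost without AAV-GFP replicate 3 or any single AAV-Ly6d library (adjusted p between 0.0606 and 0.104 in limma).

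The pericentral members that did not pass were both lower. Cyp2c38, whose promoter is printed above, stood at 990, 1428 and 1912 in AAV-GFP and 787, 501 and 1126 in AAV-Ly6d (log2 difference -0.87, limma adjusted p = 0.0584). Slco1b2, a hepatocyte uptake transporter for bile acids and drugs, stood at 34654, 52332 and 36582 and at 28742, 17483 and 34076 (log2 difference -0.65, limma adjusted p = 0.0684). Of 16 listed Cyp2c genes the table also holds Cyp2c70, an enzyme of bile acid hydroxylation, which did not pass (-0.84, limma adjusted p = 0.0673). Of 16 listed carbonic anhydrases it also holds Car8, a relative of Car3 without catalytic activity. Car8 fell by 1.06 on the log2 scale (limma adjusted p = 0.0405), from a mean of 2061 ± 716 to 974 ± 281 (SD, n = 3 each). The call on Car8 held without AAV-GFP replicate 3 and was lost without any other single library (adjusted p between 0.0501 and 0.105 in limma) and after rescaling (-0.72, adjusted p = 0.0534). Among listed target genes of the nuclear receptors CAR and PXR, Cyp2c29, Por and Cyp2b9 were in the table, 3 of 33. Cyp2b9, a female-biased cytochrome P450, stood at 216, 295 and 2016 in AAV-GFP and at 2.92, 0 and 3.26 in AAV-Ly6d. It fell (log2 difference -7.63, limma adjusted p = 0.0134), with most of its control level in AAV-GFP replicate 3, and without that library the difference was -6.63. The call on Cyp2b9 was lost without AAV-Ly6d replicate 1 (adjusted p = 0.0602 in limma). Cyp2c29 and Cyp2b9 were thus lower and Por higher.

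Wnt ligands and the gene for their secretion were lower in AAV-Ly6d. Of 25 listed genes 5 were in the table. Of these 4 fell, 1 did not pass and 0 rose, where 28% of all tested genes were called lower. Their median was -1.40 beside -0.67 over all tested genes, and 5 of the 5 were lower without overlap, beside 49.3% of all tested genes. Among the 100 tested genes nearest in level to Lgr5, 69 were lower, with a median difference of -0.74 over the 100. Lower values of these scarce genes are thus not read as particular to Wnt signalling. Wnt2 stood at 107, 96.8 and 78.5 in AAV-GFP and at 33.1, 3.99 and 42.4 in AAV-Ly6d (log2 difference -2.28, SE 0.76, limma adjusted p = 0.0467). Wnt9b stood at 36.8, 50.6 and 34.6 and at 13.6, 3.99 and 15.2 (-1.96, SE 0.53, limma adjusted p = 0.0386). AAV-Ly6d replicate 2, the library with the least Lgr5, Cyp2c29 and Car3, thus held only 4 reads of each of these ligands. That library also held the least Ly6d of its group (1799, against 3181 and 3275), and a link between these levels was not tested. Without AAV-Ly6d replicate 2 Wnt2 was at -1.30 and Wnt9b at -1.42.

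The R-spondin gene Rspo3, whose product binds Lgr5, was even among the controls at 97.7, 96.8 and 101 and was 45.7, 39.9 and 74.0 in AAV-Ly6d. It fell by 0.93 on the log2 scale (SE 0.32, limma adjusted p = 0.0491), and after rescaling its adjusted p in limma was 0.152 (-0.59). Wls, the carrier that brings Wnt proteins to the cell surface, fell by 1.40 on the log2 scale (SE 0.34, limma adjusted p = 0.0345), from a mean of 187 ± 53.9 to 70.7 ± 20.04 (SD, n = 3 each). Wnt2b did not pass (-1.15, limma adjusted p = 0.0574). These calls rest on all 6 libraries. Without AAV-GFP replicate 2 limma called 1 of the 5, Wls, and without any other single library it called 0, with all 5 still lower. After rescaling by the median ratio it called 2, Wls and Wnt9b. Of 28 listed Wnt target and feedback genes the table held Lgr5, Nkd1 and Sfrp1, a secreted Wnt antagonist (-1.57, limma adjusted p = 0.0504, did not pass). Of 39 listed Wnt receptors and signal transducers it held 0, so the receptors Lgr4 and Fzd and the transducer Ctnnb1 are not analysed here.

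The cells that make these ligands were represented by lower marker levels as well. Of 15 listed genes of central vein endothelium 8 were in the table, Wnt2, Wnt9b and Rspo3 among them, and 7 fell, 1 did not pass and 0 rose. Their median was -1.71. Over all tested genes limma called 28% lower, and the median was -0.67. Plxnc1, a semaphorin receptor, was at -2.003 on the log2 scale and Vwf, the von Willebrand factor gene, at -2.15 (limma adjusted p = 0.0173 and 0.0287). Kit, a receptor tyrosine kinase, and the transcription factor gene Lhx6 were at -1.41 and -1.47 (limma adjusted p = 0.0287 for both), and Cdh13, a cadherin, did not pass (-1.33, limma adjusted p = 0.0618). Of 28 listed general endothelial markers 17 were in the table, and 17 of these fell, with a median of -1.47. The most abundant were Ptprb, an endothelial phosphatase (-1.80, limma adjusted p = 0.0182), and Aqp1, a water channel (-1.32, limma adjusted p = 0.0141). Their summed level was 14972 to 20155 in AAV-GFP and 6106 to 7117 in AAV-Ly6d, and none of the 17 was at 0 in all libraries. Of 18 listed stellate cell markers 9 were in the table, of which 6 fell and 3 did not pass. Their sum was 3657 to 5288 in AAV-GFP and 1130 to 2529 in AAV-Ly6d. With the genes of the table handled as selected for differing, these marker counts describe the table only. Reln, the reelin gene, and Hgf, the hepatocyte growth factor gene, were at -1.54 and -1.72 (limma adjusted p = 0.0324 and 0.0272). Their part in the lower levels of Lgr5, Cyp2c29 and Car3 was not tested. The central vein count was 2, 5 and 3 without AAV-GFP replicates 1, 2 and 3 and 0, 3 and 1 without AAV-Ly6d replicates 1, 2 and 3. The general endothelial count was 12 to 17 without single libraries except AAV-Ly6d replicates 1 (0) and 3 (4), and the stellate count was 0 without either of these.

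**Figure D4:**
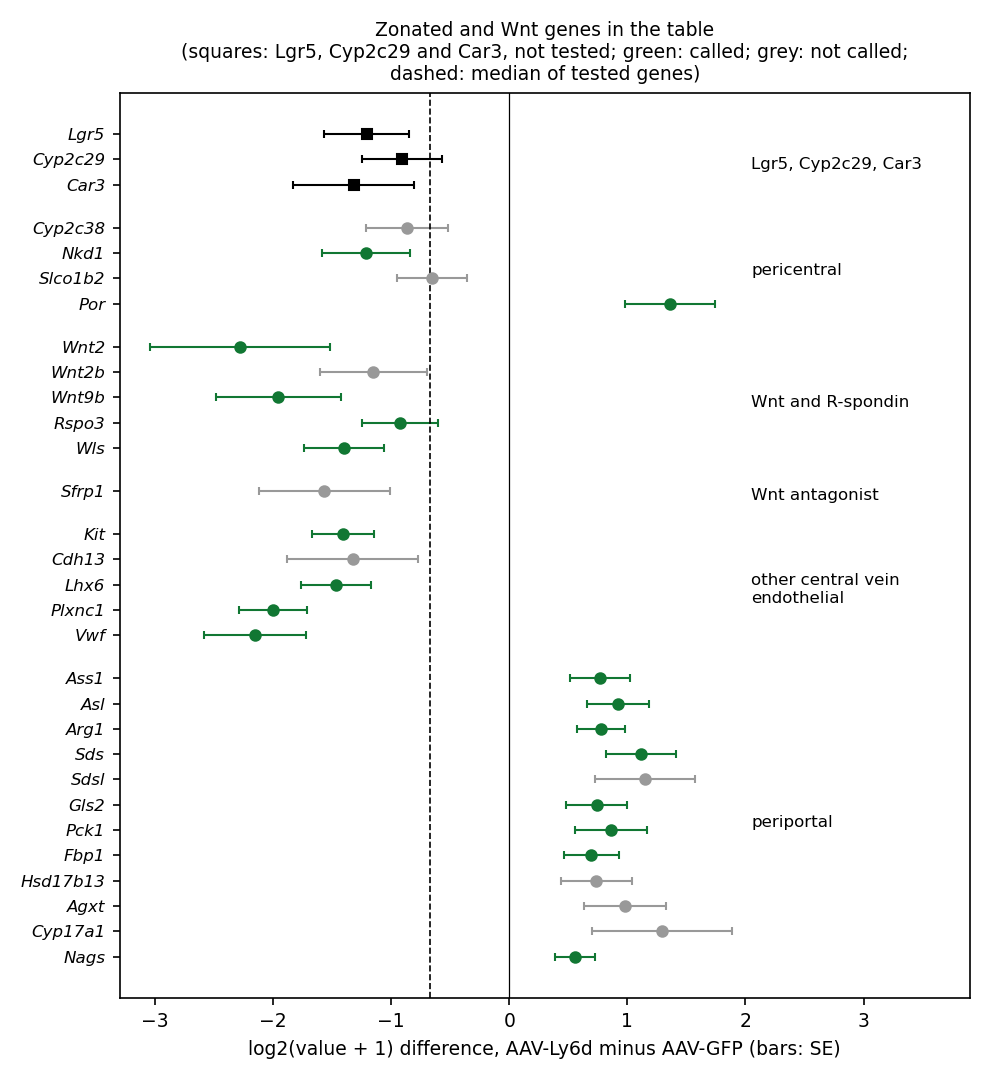
The log2(value + 1) difference between AAV-Ly6d and AAV-GFP (horizontal axis, bars are SE) for Lgr5, Cyp2c29 and Car3 (black squares, no test) and for the pericentral, Wnt, central vein endothelial and periportal genes of the table (green passed an adjusted p of 0.05 in limma, grey did not). The Wnt, R-spondin and endothelial genes lie left of 0, the 12 periportal genes lie right of 0, and Por is the only pericentral gene on the right.

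Genes of the opposite zone were higher. Of 29 listed periportal genes 12 were in the table, and 8 rose, 4 did not pass and 0 fell. Their median was 0.82. Limma called 15.9% of all tested genes higher. Among the 100 tested genes nearest in level to Cyp2c29, 11 were lower, with a median difference of 0.62 over the 100. Higher values of abundant periportal genes are thus not read as particular to their zone. Pck1, the rate-limiting enzyme of gluconeogenesis, rose by 0.86 (limma adjusted p = 0.0498), and the urea cycle genes Ass1 and Arg1 by 0.77 and 0.78 (limma adjusted p = 0.0469 and 0.0372). Fbp1, a phosphatase of gluconeogenesis, rose by 0.69 (limma adjusted p = 0.0473). The 12 genes together summed to 92891 to 144907 in AAV-GFP and 196596 to 234043 in AAV-Ly6d. Of 8 general hepatocyte genes 2 rose, Apoa1 (1.12) and the transcription factor gene Hnf4a (0.65), and 6 did not pass. Those 6 included the abundant plasma protein genes Ahsg (0.61) and Serpina1b (0.43). Apob, the most abundant of the tested genes, was the only 1 of the 8 that was lower with all libraries (-0.61), and it did not pass. The median of the 8 was 0.47. Leaving out AAV-GFP replicate 2 gave 7 periportal calls, leaving out AAV-GFP replicate 1 gave 1, and leaving out any of the other 4 libraries gave 0. The number was 12 after rescaling by the median ratio and 2 without the trend term of limma.

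Across single libraries the 3 genes followed 1 order at the ends. Each was highest in AAV-GFP replicate 2 and lowest in AAV-Ly6d replicate 2. This order was found in 267 of the 1080 tested genes that were lower in AAV-Ly6d (24.7%). It was frequent at its upper end, since AAV-GFP replicate 2 was the highest library for 75.3% of those genes, and less so at its lower end, where AAV-Ly6d replicate 2 was the lowest for 32.5%. Of the other listed genes that were lower, 8 of 43 (18.6%) had the same order, namely Car8, Cyp2c70, F8, Plxnc1, Sfrp1, Slco1b2, Wnt2b and Wnt9b, which were picked out after their values were seen. Wnt2 and Rspo3 shared its lower end, Wls and Vwf only its upper end, and Nkd1 shared neither end.

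**Figure D5:**
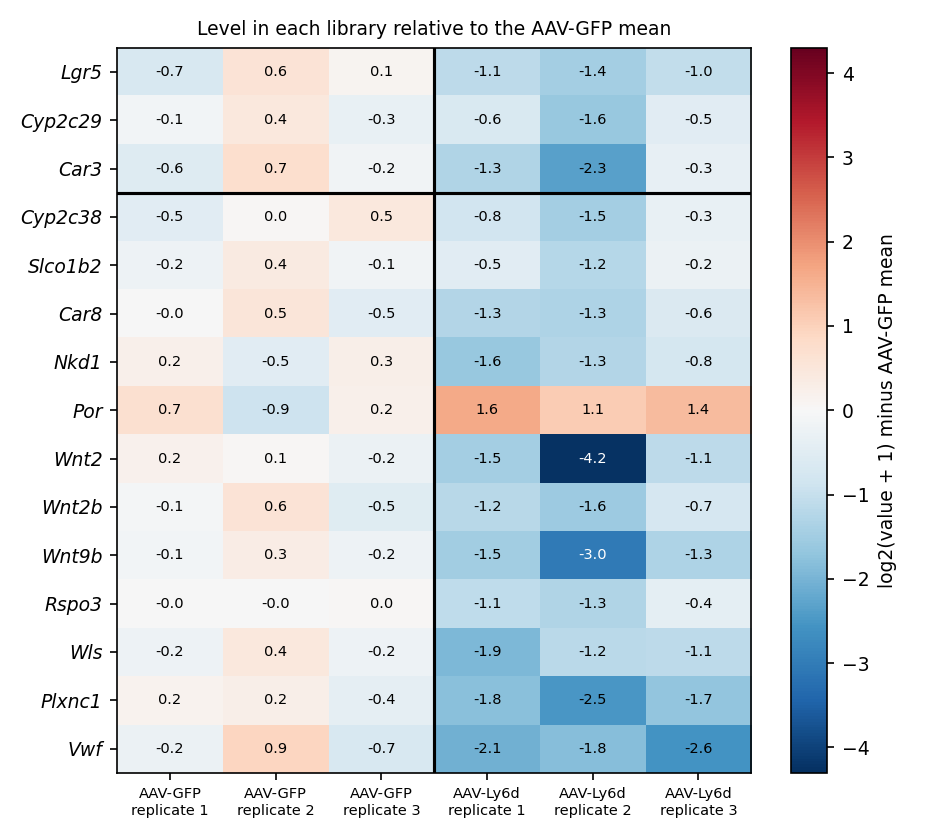
Level of each gene in each library as log2(value + 1) minus the mean of the 3 AAV-GFP libraries (colour and printed value; red above, blue below). Lgr5, Cyp2c29 and Car3 (above the line) are all lowest in AAV-Ly6d replicate 2, where Wnt2 and Wnt9b stand at -4.24 and -3.04. Wnt2b, Rspo3 and Plxnc1 are also lowest there. Wls and Nkd1 are instead lowest in AAV-Ly6d replicate 1 (-1.92 and -1.64) and Vwf in AAV-Ly6d replicate 3 (-2.56).

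The genes most like each of the 3 were ranked by Pearson's r of log2(value + 1) over the 6 libraries, as a description. The libraries fall into 2 groups and many genes of the table differ between them, so high values are common. For Lgr5, 206 of the tested genes (11.6%) had r above 0.9, for Cyp2c29 109 (6.13%) and for Car3 85 (4.78%). Pklr, the pyruvate kinase gene of liver, was most like Lgr5 (r = 0.993), followed by Exoc4, a subunit of the exocyst (0.992), Rsph4a, Ccng1, a cyclin induced by p53 (0.982), and Mthfd2l. Pklr stood at 1360, 3302 and 2132 in AAV-GFP and 815, 639 and 924 in AAV-Ly6d. For Cyp2c29 the closest were Acss3, a mitochondrial acyl-CoA synthetase (0.988), Syt1, Vti1a, the pericentral transporter gene Slco1b2 (0.984) and Wdr6. For Car3 they included Olfml1 (0.991), the sulfotransferase gene Sult1b1 (0.987), Slco1b2 (0.987) and the kinase gene Ptk6. Slco1b2 was thus the only gene named here for more than 1 of the 3.

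Deviations from the group means, which leave out the difference between groups, gave part of these names again. Over the 6 libraries Ccng1 (0.989), Pklr (0.983), Exoc4 and Smyd3 were among the closest to Lgr5. Cyp2c29 was closest to Pgm5 (0.996), Syt1, Zfp960, Vti1a and Mylk, and Car3 to Olfr1396 (0.991), Olfml1, Tenm3, Klhl5 and Sult1b1. Among the 3 themselves, Cyp2c29 and Car3 had the highest r, 0.952 over the libraries and 0.906 over the deviations. Lgr5 had 0.820 and 0.555 with Cyp2c29 and 0.867 and 0.731 with Car3. The 6 libraries with 2 group means removed leave few independent points, so these values rank genes and show no more.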

How the data were processed

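Liver RNA sequencing was analysed from 1 deposited table of 1834 genes in 6 libraries. The deposited values are a normalised read count, handled as a signal, and within each column every value is a whole multiple of 1 step (100% within 0.001 of a read), the form of reads divided by a factor per library. Bowtie 0.12.2 and mm10 are named in the submitters' processing notes. For the counter, its strand setting, the annotation, the normalisation tool and the rule that chose the 1834 genes: not given in the sources used here. No tested gene had a p above 0.0693 in DESeq2 on the recovered reads, and no ratio of group means was closer to 1 than 0.32 on the log2 scale. Genes of the table were thus handled as ones selected for differing here, which makes their adjusted p-values too small. The 3 genes and the 16 lists (336 genes, 70 in the table) were chosen with earlier results of these data known.

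Symbols, coordinates and lengths come from GENCODE M21 on GRCm38 (1833 of 1834 identifiers matched), and promoters from RefSeq. Differences were fitted with limma 3.58.1 in R 4.3.3 (trend, no covariates) on log2(value + 1), which understates the change of low genes, with Benjamini-Hochberg adjustment over 1780 genes; 54 were not tested. The functions were tested on simulated reads in which a minority of genes were raised and the others left unchanged. That setting is unlike this table, so the simulation checks the functions and not the calls made here. Tried as alternatives were leaving out each library, a replicate block, other pseudocounts (0.5 and 8), other filters, rescaling and no trend, and, added after seeing the data, adjustment over the 55450 genes of the annotation and fits of the recovered reads in edgeR 4.0.16 and DESeq2 1.42.0. The step of AAV-Ly6d replicate 2 (0.997) is near 1, and its recovered reads entered those fits. Named were the 3 genes, every tested gene of the pericentral, Wnt, Cyp2c, carbonic anhydrase, CAR and PXR and central vein lists, up to 4 of the highest mean in other lists, and the 5 genes most like each of the 3, of which some are not reported here. Of these, the macrophage and cholangiocyte lists had 0 of 13 and 3 of 13 genes in the table, of which Sox9 and Tff3 rose and the third, Ly6d, is the gene the vector delivered.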

Additional observations from a re-analysis of the deposited data

How the results depend on the processing

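Every alternative that gave a value left Lgr5, Cyp2c29 and Car3 lower in AAV-Ly6d, within 1 SD between replicates of the value above. Leaving out single libraries gave log2 differences of -1.56 to -0.92 for Lgr5, -1.13 to -0.56 for Cyp2c29 and -1.81 to -0.81 for Car3. The number of genes called over the table was far less stable. It was 782 in limma with all libraries and 0 to 607 without 1 library (0 without AAV-Ly6d replicate 1, with 773 genes at an unadjusted p under 0.05), and it was 1 with the adjustment over all annotated genes. On the recovered reads, edgeR on the deposited scale called 465 genes, DESeq2 called 1347, and DESeq2 adjusted over all annotated genes called 124. The share of calls that were higher was 36.2% with limma, 69.2% after rescaling by the median ratio and 69.1% in edgeR with TMM factors. Of the 4 other pericentral genes limma called 2, and 0 to 2 without 1 library. It called 1 after rescaling and 1 without the trend, edgeR with TMM factors called 1, and 0 were called by limma or DESeq2 with adjustment over all annotated genes. Of all listed genes limma called 47, and 0 to 42 without 1 library, 0 with the adjustment over all annotated genes and 23 in DESeq2 with that adjustment. Apob, a hepatocyte apolipoprotein gene with 743167 in AAV-GFP replicate 2 and at most 216089 elsewhere, stood at -0.61 with all libraries, changed sign without that library (0.033) and ranged from there to -0.96 without AAV-GFP replicate 3. Same-numbered libraries of the groups did not deviate together (r across genes of -0.02, -0.05 and -0.06 for replicates 1, 2 and 3). With 3 libraries per group these values do not settle whether the numbers pair them. With the replicate number as a block limma called 48 genes, 0 of the other pericentral genes and 16 listed genes. Lgr5 rests on 70 to 266 reads and Wnt2 and Wnt9b on as few as 4, so single-library values of these genes carry a large counting error.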

Other observations

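The summed level of the 12 periportal genes was lowest in AAV-GFP replicate 2 (92891, against 144907 and 133590), where the 3 pericentral genes were highest, and highest in AAV-Ly6d replicate 2 (234043, against 206559 and 196596), where those were lowest. Of the 12 periportal genes 8 were lowest in AAV-GFP replicate 2, 10 were highest in AAV-Ly6d replicate 2 and 6 were both, among them Ass1 and Sds, a serine dehydratase. Of the 700 tested genes that were higher in AAV-Ly6d, 504 (72%) were lowest in AAV-GFP replicate 2, 269 (38.4%) were highest in AAV-Ly6d replicate 2 and 27.3% were both. The count of 8 of 12 (66.7%) was thus no higher than over the table. Other pericentral genes did not share 1 order. Slco1b2 had that of the 3 genes, but Por and Nkd1 were lowest among the controls in AAV-GFP replicate 2 (2462 and 61.3). The opposed order of the zones was noticed after the values were seen and was not tested.

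The summed endothelial markers did not show the same order. The level summed over the 17 markers was 6106, 7117 and 6497 in AAV-Ly6d replicates 1, 2 and 3, so AAV-Ly6d replicate 2, with the least Cyp2c29, Car3, Wnt2 and Wnt9b, held the highest endothelial sum of its group. The sum of the 8 central vein endothelial genes was lowest there (376, against 534 and 583). Plxnc1, the most abundant of the 8 in AAV-Ly6d, stood at 136 there, against 223 and 238. Vwf, which is counted in both sums, was highest of its group there (93.7, against 77.8 and 55.5), while the other genes of the 8 were lowest there.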
